A study of Rattus norvegicus with 6 samples.

Results

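The mRNAs of Western diet (WD) liver that were loaded with many ribosomes were compared with those that carried few. Obesity-prone Sprague Dawley male rats had eaten the WD (TD 88137) for 2 weeks, were fasted for 16 h and were refed for 1 h. Homogenate of the left liver lobe was separated on a sucrose gradient into a light fraction, with mRNAs on 3 or fewer ribosomes, and a heavy fraction, with mRNAs on 4 or more. RNA of 3 rats was pooled for each library, so that each fraction was 1 library. Light, heavy and total RNA libraries of rats fed a control diet (CD; TD 08485) were made in the same way, and WD total RNA completed the 6 libraries. All rats were of the same strain and had the same fast and refeeding. With 1 pooled library a side there was no replicate, and no difference between the diets or the fractions could be tested against the spread between animals.

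Of 33022 loci in the deposited table, 32158 had a gene symbol and 10201 were compared. These had a symbol and no failed estimate, and averaged 1 FPKM or more across all 6 libraries. FPKM is the number of sequenced fragments scaled to transcript length and to the size of the library, a level that can be compared between genes of different lengths. Of the loci compared, 9210 had a symbol that RefSeq gives as protein-coding, and 173 merged several symbols. Equal amounts of RNA of each animal entered each fraction, so a ratio of heavy over light says how an mRNA was placed relative to the others in each fraction, not what part of its molecules was in it.

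A ribosome takes a set time to move along a reading frame, so the number of ribosomes on an mRNA grows with the rate of initiation and with the length of the frame. An mRNA that is poorly initiated, or whose frame is short, is found in the light part of a gradient together with mRNAs held in free particles. Feeding and insulin act through mTORC1, a kinase whose signal releases the cap-binding factor eIF4E and favours mRNAs with a 5′ terminal oligopyrimidine (TOP) tract, among them those for cytosolic ribosomal proteins. Such a tract begins with a C at the first base of the mRNA and goes on with pyrimidines. The first bases from the annotated start are shown for 4 ribosomal protein genes that have it, for Eef1a1, which is a classic TOP mRNA, and for the 3 coding genes ranked farthest to the heavy side by the lower bound of their counting interval. Each window holds 10 bases before the start and 15 from it, on the coding strand, from RefSeq on GRCr8, and capitals mark the pyrimidines that run from the start base.
Rps15 (chr7:10068101-10068125, minus strand): acaccgcttcCTTTTCCCagcagcc
Rplp0 (chr12:46718376-46718400, minus strand): caccgcacttCTCTCgccaggcgtc
Rpl35 (chr3:43165907-43165931, minus strand): cttcctctttCTCTCgaaccgggcg
Rpl39 (chrX:121195882-121195906, minus strand): taatcgcgttCTTCCggcctgtcct
Eef1a1 (chr8:88225055-88225079, minus strand): ttggacgttcTTTTTCgcaacgggt
C6 (chr2:55573623-55573647, plus strand): ttcggactacaccatcttgtgttgc
Sec23b (chr3:152392673-152392697, plus strand): gctgaggtggacttggctgtggaag
Mdh1 (chr14:99847213-99847237, minus strand): ctcccagagtCTgttccgctgtaga

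The WD light library stood apart from the others, which bears on every low ratio below. It held 118 loci whose level was over 4-fold above the highest of the other 5 libraries and over 20 FPKM, against 4 to 31 such loci in each of the others. Of the 118, 56 were RefSeq protein-coding and 16 were cytosolic ribosomal protein genes. A locus of 7SK, a small nuclear RNA that binds a transcription elongation factor, on chromosome 8, was at 49134 FPKM in the WD light library and at 10.5 to 467 FPKM in the other 5. Another 7SK locus, on chromosome X, was at 5758 FPKM in WD light and at 12519 in CD light, and did not stand apart in WD light. Several of these genes have many near-identical copies in the genome, and the share of reads given to a copy is uncertain. Of 61 cytosolic ribosomal protein loci compared, 10 were listed at 0 FPKM in WD total RNA, 12 in the heavy fraction and 1 in the light fraction. The part of these features in the results was not tested, and CD values, WD heavy over total RNA and values without the 118 loci are given beside the ribosomal protein results.

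The level in the WD heavy fraction was at least 2-fold above that in the light fraction in 2144 loci (21% of 10201) and at least 2-fold below it in 2679 (26.3%). All ratios were computed on the log2 scale after adding 0.1 FPKM. Their median was 0.00, with quartiles of -1.07 and 0.83. When the libraries were scaled to 1 common sum over loci with a symbol, the median moved by 0.26, and 28.5% of loci were then at least 2-fold higher in the heavy fraction and 21.5% at least 2-fold lower, so the balance between the directions depended on the scaling. Both fractions were listed at 0 in 159 loci, the heavy alone in 688 and the light alone in 101. Whole numbers of fragments could be inferred from the FPKM values of 6638 loci, with medians of 10 fragments a locus in the heavy and 24 in the light library, whose depth was 2.28 times that of the heavy one. The exact binomial 95% interval of the ratio, which covers counting error only, lay above 1 in 1332 of them (20.1%) and below 1 in 1163 (17.5%).

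**Figure D1:**
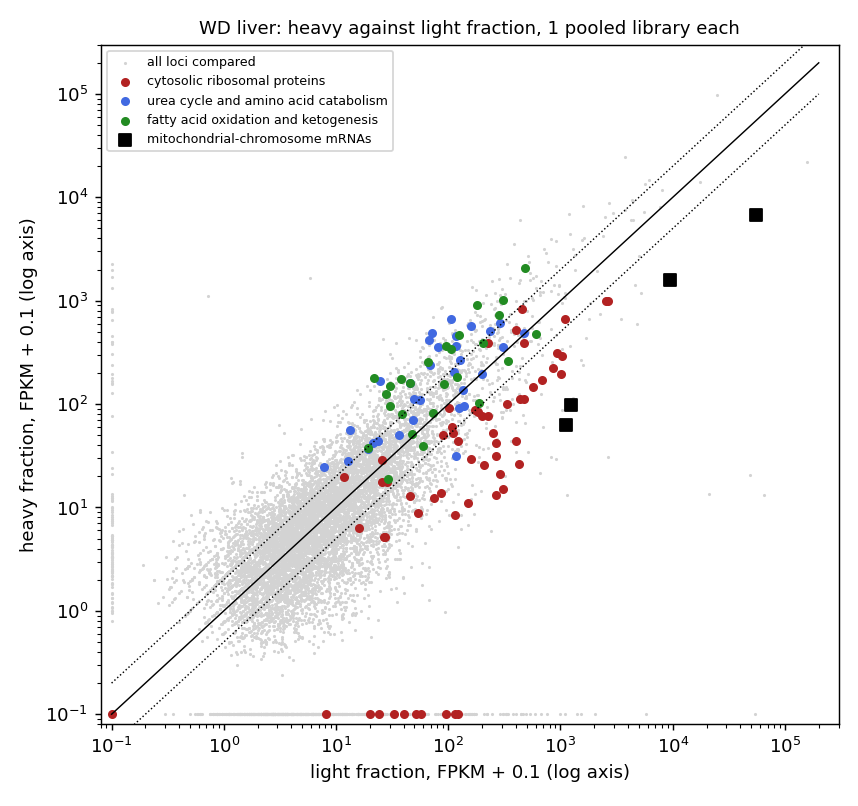
Level in the WD heavy fraction (vertical axis) against the WD light fraction (horizontal axis), both as FPKM + 0.1 on log axes, for the 10201 loci compared, with the solid line at equality and dotted lines at 2-fold. Of the 60 ribosomal protein genes drawn in red, 5 lie above the solid line, and the mitochondrial-chromosome mRNAs (black squares) lie below it.

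Abundant mRNAs were placed farther to the heavy side. Among 647 loci that averaged 100 FPKM or more, the median log2 ratio was 0.70, and 39.1% were at least 2-fold higher in the heavy fraction. Among the 2580 loci between 1 and 3 FPKM the median was -0.26, and 34.3% were at least 2-fold lower in the heavy fraction. In that lowest class 499 loci were listed at 0 in the heavy library, the shallower of the pair.

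The 12 coding genes named at the heavy end had the highest lower bounds of the counting interval among 6124 coding genes with inferred fragments. The order is not that of the ratios, since Pck2, Ifi35 and Lyz2 had higher ratios than C6 on fewer fragments. C6, a component of the complement membrane attack complex, was at 393 FPKM in the WD heavy fraction, 34.2 in the light and 84.5 in total RNA, and at 821, 109 and 170 FPKM in the CD libraries in the same order. Its WD ratio was 11.5 with an interval of 9.68 to 13.7. Sec23b, a coat protein of vesicles that leave the endoplasmic reticulum, was at 85.5 FPKM in the heavy and 7.82 in the light fraction, a ratio of 10.9 (7.52 to 16.3). Mdh1, cytosolic malate dehydrogenase, was at 303 and 30.2 FPKM, a ratio of 10.0 (7.50 to 13.6). Both genes were also higher in the CD heavy than in the CD light fraction, with log2 ratios of 2.08 for Sec23b and 2.75 for Mdh1.

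Vcp, an ATPase that extracts ubiquitinated proteins, was at 485 FPKM in the WD heavy and 63.9 in the light fraction, a ratio of 7.59 (6.70 to 8.62). Tapbp, a chaperone that loads peptides on class I molecules, was at 138 and 15.1 FPKM, a ratio of 9.12 (6.26 to 13.6). Gstm1, a glutathione transferase, was at 2287 and 332 FPKM, a ratio of 6.88 (6.22 to 7.61), and its CD log2 ratio was 1.37 against 2.78 in WD. The peroxiredoxin Prdx1 had a ratio of 8.87 (6.15 to 13.1), the peroxisomal thiolase Acaa1a one of 8.12 (5.71 to 11.8) and the acute-phase protein Lbp one of 7.57 (5.68 to 10.2). Lyz2, the lysozyme of macrophages, had 11.97 (5.55 to 29.5). Pck2, mitochondrial phosphoenolpyruvate carboxykinase, and Ifi35, an interferon-induced protein, rested on 1 and 2 fragments in the light library, and their intervals ran from 6.07 to 1620 and from 5.54 to 201. All 12 genes were higher in the CD heavy than in the CD light fraction, with log2 ratios from 1.15 in Lyz2 to 2.96 in Prdx1.

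At the light end, Eif4ebp2, a repressor that binds eIF4E and is released from it by mTORC1, was at 0.866 FPKM in the WD heavy fraction, 94.3 in the light and 54.9 in total RNA. In CD liver it was at 0.888, 78.5 and 60.4 FPKM. A single fragment was found in each heavy library, against 248 in WD light and 95 in CD light, and the WD ratio was 0.00919 (0.000232 to 0.0517). Fth1, the heavy chain of ferritin, whose mRNA carries an iron-responsive element near its cap, was at 87.5 FPKM in the WD heavy and 1022 in the light fraction, 11.7-fold higher in the light, and its CD values were 105 and 997 FPKM. Both genes were light in both diets at similar light-fraction levels.

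Lsm12 and Rap2c, a small GTPase, were listed at 0 in the WD heavy fraction and at 33 and 15.3 FPKM in the light. The upper bounds of their ratios of heavy over light were 0.0750 and 0.112. Their CD heavy levels were 4.73 and 1.39 FPKM against 23.3 and 18.1 in the CD light fraction.

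Another 7 genes at the light end were light in WD with a WD light level far above that of CD. Ccdc152, a gene that adjoins Sepp1 in the same region, was at 2674 FPKM in WD light and at 157 in CD light, and at 30.5 and 37.8 FPKM in the heavy fractions. Eef1a1, which brings aminoacyl-tRNA to the ribosome, was at 30.5 FPKM in WD heavy, 823 in WD light and 63.9 in WD total RNA, and at 40.5, 58.2 and 75.1 FPKM in the CD libraries. Hrsp12 was at 652 FPKM in WD light and 27.9 in CD light. The globin genes Hba1 and Hbb were at 163 and 242 FPKM in WD light and at 18.0 and 13.9 in CD light. Rps3a and Ncl, the nucleolar protein nucleolin, were at 56.9 and 35.1 FPKM in WD light and at 12.8 and 3.76 in CD light. For Hrsp12 and Ncl the CD log2 ratios were 0.52 and -0.12, and the difference from WD was not tested.

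**Figure D2:**
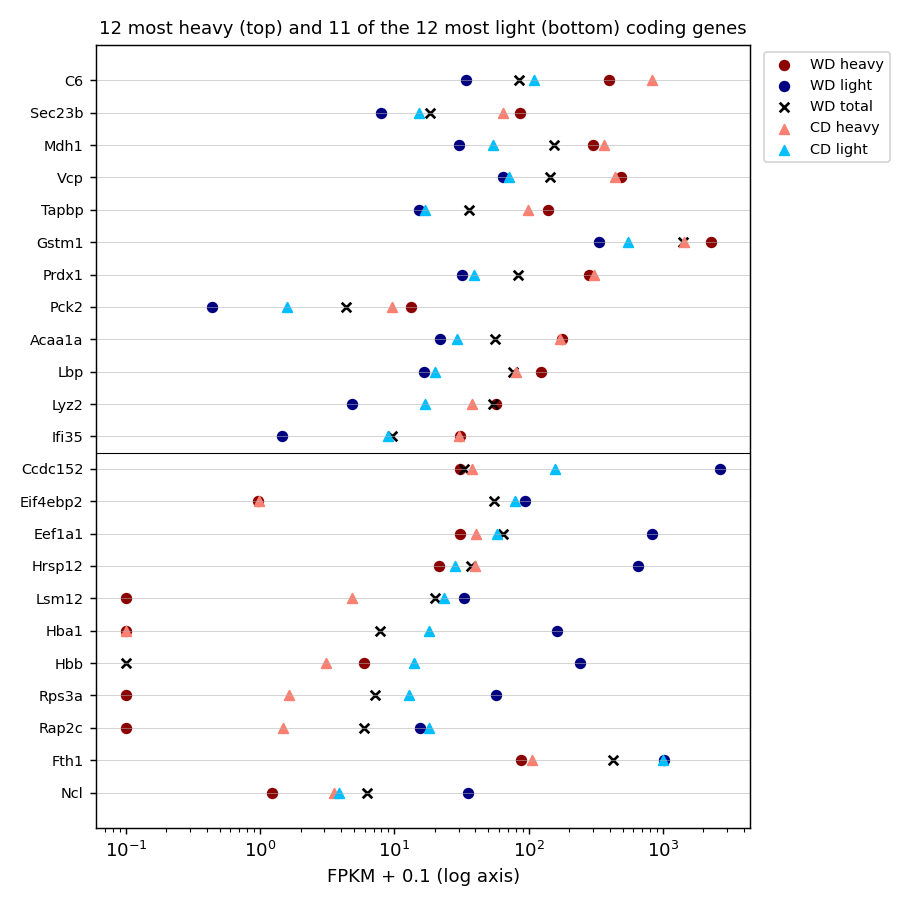
FPKM + 0.1 (log axis) of the 12 coding genes farthest to the heavy side by counting interval (above the line) and 11 of the 12 farthest to the light side (below it), with 1 point per library. In the upper genes both heavy libraries lie right of both light ones, and in Ccdc152, Eef1a1, Hrsp12, Hba1 and Hbb the WD light point lies far right of the CD light point.

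Cytosolic ribosomal proteins were the group of mRNAs farthest to the light side among the lists of at least 20 genes. Of 36 large-subunit genes compared, 34 were lower in the WD heavy than in the light fraction (50.0% of all loci were) and 30 were at least 2-fold lower, none was at least 2-fold higher, and the median log2 ratio was -2.17. Of 24 small-subunit genes, 20 were lower, 16 at least 2-fold, with a median of -1.66. Against this, 26.3% of all loci were at least 2-fold lower and the median of all was 0.00. In CD liver the medians were -0.85 and -0.72, with 14 and 11 genes at least 2-fold lower (23.9% of all loci). Without the loci that stood apart in the WD light library, the WD medians were -1.94 and -1.04. For WD heavy over total RNA they were 0.00 and -0.05, and for WD light over total RNA they were 2.08 and 1.84. Of large-subunit genes 14 were higher and 16 lower in heavy than in total RNA, and of small-subunit genes 9 and 13. Listed at 0 were 7 large-subunit genes in the heavy library and 6 in total RNA, and 4 and 3 small-subunit genes. Ratios of genes listed at 0 depend on the 0.1 FPKM added.

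Most of the members highest in mean level were light, though not all. Rpl41, the shortest protein of the ribosome, was at 983 FPKM in WD heavy, 2650 in light and 1272 in total RNA, and at 950, 3193 and 1281 FPKM in CD. Rplp0, of the ribosomal stalk, was at 293, 1033 and 505 FPKM in WD and at 385, 1041 and 438 in CD. Both were light in WD and in CD. Rpl39, whose symbol was on 7 loci, was taken at the locus of highest mean, on chromosome 14. The Rpl39 start shown above is on chromosome X, at another locus. The chromosome 14 locus was at 194 FPKM in WD heavy and 1012 in WD light, without inferred fragments. Rps29, whose symbol was on 4 loci, was at 992 and 2550 (0.302 to 0.495 for the ratio). Rps15 was at 666 and 1101 FPKM (0.509 to 0.716). These members too were lower in the heavy than in the light fraction of CD. Rpl18 was higher in the heavy fraction, at 837 against 457 FPKM (1.55 to 2.16). Rps25 was at 525 and 403 FPKM with an interval of 0.95 to 1.77, which holds 1. Rps15a, the small-subunit gene with the highest WD ratio, was at 391.9 against 227 FPKM (1.20 to 2.47). Rps18 was at 26.3 FPKM in WD heavy and at 423 in WD light, with a CD log2 ratio of -2.80.

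Other mRNAs listed as TOP mRNAs, whose tract was not checked for the list, were placed on both sides. Of 23, 12 (52.2%) were at least 2-fold lower in the WD heavy fraction, against 26.3% of all loci. At least 2-fold higher were 3 (13.0%), against 21% of all loci. The median was -1.12 in WD and -0.34 in CD. Tpt1, a growth-related protein, was at 34 and 401 FPKM in WD and at 65.0 and 380 in CD. Eef1b2, an exchange factor of elongation, was at 125 and 283 FPKM. Eef2, the translocase of elongation, was at 450 and 468 FPKM, with an interval of 0.89 to 1.04.

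The pyrimidine run shown above was searched for at annotated starts, as at least 5 bases that are each C or T and begin with C, on the coding strand only. It was present in 2.63% of all 33469 start windows, in 18 of 46 ribosomal protein genes with a window (39.1%) and in 2.78% of 7164 coding genes outside the TOP lists. The 18 ribosomal protein genes with the run had a median log2 ratio of -2.39 in WD and -1.46 in CD, and the 28 without it had -2.12 and -0.26. Of 17 other listed TOP mRNAs with a window 1 had the run (5.88%), at a log2 ratio of 1.21 in WD, and the 16 without it had a median of -1.15. The rule does not take Eef1a1, whose annotated start is a T. The coding genes outside the TOP lists that had the run had a median of -0.21 in WD and 0.09 in CD, against 0.02 and 0.10 for the genes without it.

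Initiation factors not on the TOP list, with the repressor Eif4ebp2 counted among them, had a median of -0.42 over 29 genes in WD. Of these genes 12 (41.4%) were at least 2-fold lower in the WD heavy fraction, against 26.3% of all loci. Another 5 (17.2%) were at least 2-fold higher, against 21%. In CD the median was 0.09, with 17 of 29 higher in the heavy fraction (50.2% of all loci). At least 2-fold lower in CD were 8, where 23.9% of all loci were. Eif4a1, the helicase of the cap-binding complex, was at 197 FPKM in the WD heavy and 64.5 in the light fraction. Eif1, which guards start codon choice, was at 153 and 581 FPKM, and Eif4g2, a scaffold that lacks the eIF4E site, at 14.8 and 99.0. Cytosolic aminoacyl-tRNA synthetases, which charge tRNA, lay on the other side. Of 20, 17 were higher in the heavy fraction (48.5% of all loci were) and 9 at least 2-fold (45%, against 21%). Their median was 0.97 in WD and 0.89 in CD, and 0.27 for WD heavy over total RNA. Wars was at 45.5 and 7.75 FPKM and Eprs at 126 and 41.1 FPKM, while Hars was at 2.33 and 10.9 FPKM, on 3 fragments in the heavy library.

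mRNAs for secreted plasma proteins and for the main metabolic pathways of the hepatocyte were on the heavy side of the heavy over light ratio. Of 40 plasma protein genes 38 were higher in the WD heavy than in the light fraction (48.5% of all loci) and 25 at least 2-fold (62.5%, against 21% of all loci), with a median of 1.22 in WD and 1.14 in CD. For WD heavy over total RNA their median was 0.33, with 32 of 40 higher (49.1% of all loci). Albumin was at 97448 FPKM in the heavy fraction, 24966 in the light and 43677 in total RNA. Fgb, the beta chain of fibrinogen, was at 6899 and 1194 FPKM, and Ttr, the thyroxine carrier, at 9293 and 4421. Apoc2, a short apolipoprotein that activates lipoprotein lipase, was the other way, at 202 and 976 FPKM in WD and at 229 and 515 in CD.

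Fatty acid oxidation and ketogenesis had the highest WD median of the lists, 1.52, and 0.88 for heavy over total RNA. In CD its median was 1.07, below those of the urea cycle and amino acid list (1.19) and of plasma proteins (1.14). In WD 15 of 26 genes were at least 2-fold higher in the heavy fraction (21% of all loci) and none at least 2-fold lower (26.3%). Acsl1, which activates long-chain fatty acids, was at 2092 and 480 FPKM, and Acaa2, a mitochondrial thiolase, at 1025 and 304. Acadm, a dehydrogenase of medium chains, was at 102 and 187 FPKM in WD and at 134 and 123 FPKM in CD.

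Of 26 genes of glucose metabolism 24 were higher in the heavy fraction (48.5% of all loci were) and 14 at least 2-fold (21%). Their median was 1.06 (0.96 in CD, and 0.79 for WD heavy over total RNA). Pc, pyruvate carboxylase, was at 479 and 108 FPKM and Pgk1, of glycolysis, at 412 and 93.0. Fbp1, of gluconeogenesis, was at 143 and 201 FPKM in WD and at 103 and 75.7 in CD. In the urea cycle and amino acid catabolism 17 of 31 were at least 2-fold higher (21% of all loci were). Their median was 1.07 (0.73 for WD heavy over total RNA). Otc, of the urea cycle, was at 661 and 107 FPKM and Cps1, its first enzyme, at 570 and 159. Glul, glutamine synthetase of the cells around the central vein, was at 31.7 and 117 FPKM in WD and at 31.3 and 105 in CD.

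Drug-metabolizing enzymes had a median of 0.92 over 24 genes, with 8 (33.3%) at least 2-fold higher, against 21% of all loci. The proteasome had a median of 0.64 over 40 subunits. Of these, 17 (42.5%) were at least 2-fold higher and 5 (12.5%) at least 2-fold lower, against 21% and 26.3% of all loci. Fatty acid and triglyceride synthesis had a median of 0.61 over 24 genes. There Acaca, the carboxylase that makes malonyl-CoA, was at 28.8 and 5.08 FPKM and Fads2, a desaturase, at 313 and 108. Scd1, another desaturase, was at 230 and 163 FPKM in WD and at 372 and 439 in CD, and the WD interval of 1.29 to 1.55 and the CD interval of 0.784 to 0.916 lay on opposite sides of 1. Cholesterol synthesis was near the median of all loci, at -0.15 over 25 genes.

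**Figure D3:**
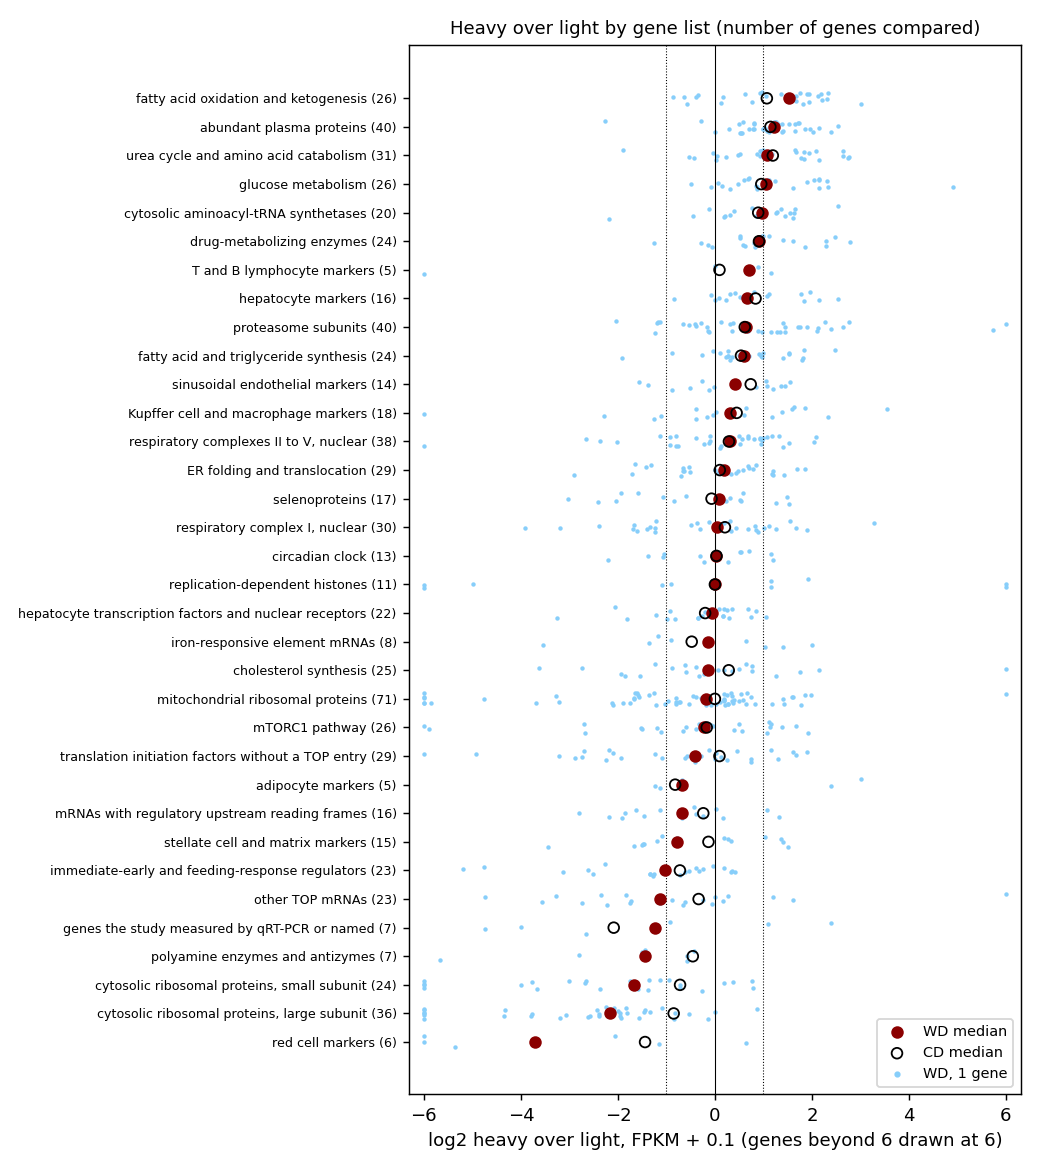
log2 ratio of heavy over light (FPKM + 0.1) for genes of each list with at least 5 genes compared, in WD (small points), with the median of WD (filled) and CD (open), and dotted lines at 2-fold. The lists run from fatty acid oxidation at a WD median of 1.52 to red cell markers at -3.71. The red cell median rests on 6 genes, 2 of them listed at 0 in WD heavy. Without the 3 that stood apart in the WD light library it was -1.15, and in CD it was -1.44.

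Mitochondria make a few of their own proteins on their own ribosomes. The mRNAs of the mitochondrial chromosome were light in both diets. The locus that merges Mt-co1 with Mt-atp6, Mt-nd4 and others was at 6819 FPKM in the WD heavy fraction and 54991 in the light, and at 4883 and 64680 in CD. Mt-cytb was at 62.5 and 1116 FPKM in WD and at 95.4 and 1872 in CD. Nuclear subunits of complex I had a median of 0.03 over 30 genes and those of complexes II to V 0.31 over 38. For WD heavy over total RNA these medians were 0.77 and 0.58. Of the genes, 24 of 30 and 26 of 38 were then higher in the heavy fraction, against 49.1% of all loci. Within complexes II to V Atp5e, a small subunit of the ATP synthase, was at 671 and 3475 FPKM in WD heavy and light, and Atp5o at 218 and 51.1. Mitochondrial ribosomal proteins, which are made in the cytosol, had a median of -0.19 over 71 genes, 24 of them (33.8%, against 26.3% of all loci) at least 2-fold lower in the heavy fraction.

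Of 23 immediate-early and feeding-response genes 19 were lower in the WD heavy fraction, against 50.0% of all loci. At least 2-fold lower were 12 (52.2%, against 26.3% of all loci), and none was at least 2-fold higher. The medians were -1.04 in WD and -0.72 in CD. With genes listed at 0 set at the limit of 3 fragments, the WD median was -0.73. Jund, a subunit of AP-1, was at 30.9 and 75.2 FPKM, and Socs2, which restrains growth hormone signalling, at 62.7 and 129. Of 16 mRNAs with regulatory upstream reading frames 12 were lower in the WD heavy than in the light fraction (50.0% of all loci were). Their median was -0.69 in WD and -0.24 in CD. For WD heavy over total RNA it was 0.10, with 8 higher and 8 lower. Atf5 was at 162 and 497 FPKM and Atf4 at 55.5 and 89.5, while Trib3, a target of Atf4, was at 33.3 and 13.2. All 7 polyamine genes compared were lower in the heavy fraction in WD (50.0% of all loci were), and 5 of 7 in CD (46.2%). Their WD median was -1.44, and -0.81 with genes listed at 0 set at the limit of 3 fragments. Sat1, which acetylates spermidine, was at 51.5 and 140 FPKM. The median was 0.03 for 13 clock genes, with 7 higher and 6 lower. For 8 genes listed for an iron-responsive element, which was not checked for the list, it was -0.14, with 4 each way. With a mean of at least 10 FPKM the median of that list was -0.91. For 22 hepatocyte transcription factors the median was -0.06, with 11 each way.

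Sepp1, the selenium carrier that the liver secretes, was the most extreme of 17 selenoprotein genes, whose median was 0.09. It was at 590 FPKM in WD heavy and 4826 in WD light, and at 886 and 8116 in CD. Gpx1, a glutathione peroxidase, was at 747 and 2236 FPKM in WD and at 755 and 2139 in CD. Both had intervals below 1, of 0.113 to 0.133 and 0.299 to 0.373.

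Of the genes that the study followed by PCR, Ucp2 is a carrier of the mitochondrial inner membrane. It was at 8.54 FPKM in WD heavy, 16.2 in light and 13.6 in total RNA, and at 0.972, 23.5 and 15.5 in CD. The heavy values of Ucp2 rested on 9 fragments in WD and 1 in CD, and its WD interval of 0.224 to 1.10 holds 1. Lpl, which frees fatty acids from lipoproteins, was at 2.32 and 5.59 FPKM in WD and at 0.792 and 3.69 in CD. Its heavy values rested on 6 fragments in WD and 2 in CD, and its WD interval of 0.142 to 1.002 holds 1. Lipe, hormone-sensitive lipase, was at 3.06 and 0.504 FPKM in WD, a ratio that rested on 8 and 3 fragments (1.46 to 35.6). In CD it was at 0.784 and 1.46 FPKM, on 2 and 4 fragments. Pfkfb3, which makes the activator of phosphofructokinase, was at 2.24 and 1.00 FPKM in WD and at 0.983 and 1.24 in CD, without inferred fragments. The differences between the diets in these genes were not tested. Map3k14 averaged under 1 FPKM and was not compared.

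The CD fractions, which share no library with the WD fractions, gave ratios of the same direction in 76.9% of the loci at least 2-fold apart in WD. Of the 2144 loci on the heavy side in WD, 82.0% were higher (50.2% of all loci) and 54.8% at least 2-fold higher in the CD heavy fraction, where 23% of all loci were. Of the 2679 on the light side, 72.8% were lower (46.2% of all loci) and 52.0% at least 2-fold lower, against 23.9% of all loci. The shared loci made up 50.2% of the loci on the heavy side in CD and 57.2% of those on the light side. Spearman's rho between the diets was 0.54 over 10201 loci and 0.71 over 4455 loci with at least 20 fragments over both WD fractions. These correlations are across genes, which are not independent replicates.

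**Figure D4:**
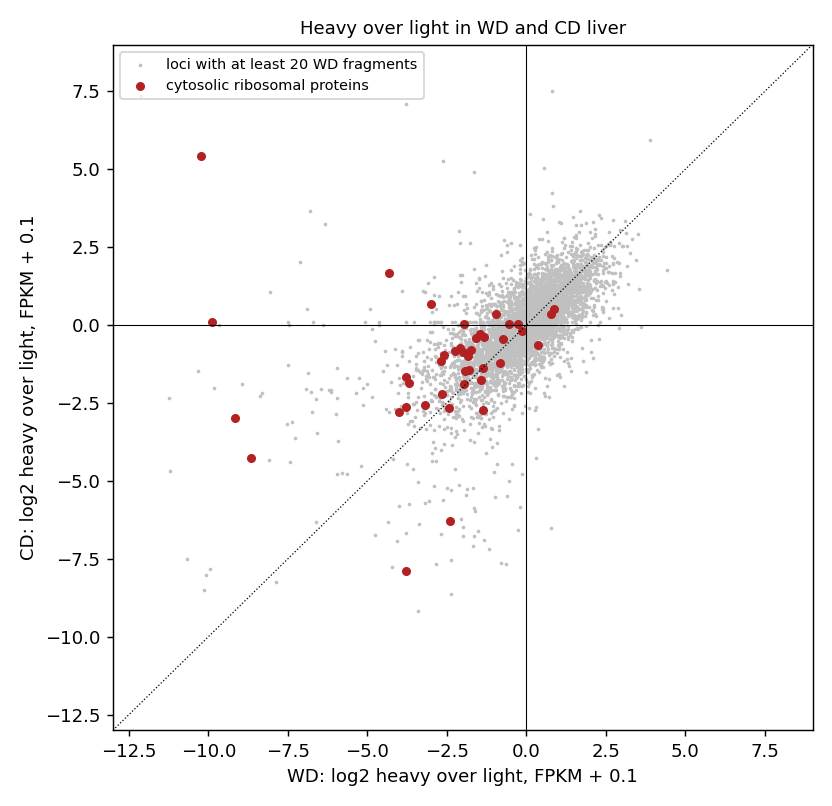
log2 ratio of heavy over light (FPKM + 0.1) in CD (vertical axis) against WD (horizontal axis) for 4455 loci with at least 20 WD fragments, with the dotted line at equality. Ribosomal protein genes (red) lie mostly above the dotted line, with WD ratios lower than CD ratios.

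Transcript length, inferred from the FPKM worth of 1 fragment, had little relation to the ratio. Spearman's rho across 4283 coding genes with at least 20 fragments was 0.01 in WD and 0.05 in CD. Genes with transcripts of 500 to 1000 bases had 34.4% of 308 members at least 2-fold lower in the heavy fraction, and those over 6000 bases 12% of 299. The shares at least 2-fold higher were 19.5% and 22.7% in the same order. Medians did not rise steadily with length, at 0.17 for 1500 to 2000 bases and -0.17 for 4000 to 6000. Of all 4455 loci with at least 20 fragments, 23.3% were at least 2-fold lower and 19.1% at least 2-fold higher.

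The libraries were those of liver in all fractions. All 16 hepatocyte markers found were compared, and their summed level was 132604 FPKM in WD heavy, 41400 in WD light and 71815 in WD total RNA. Macrophage markers summed to 358, 193 and 322 FPKM in the same order, and red cell markers to 31.3, 547 and 32.9. Markers of sinusoidal endothelium summed to 212, 184 and 258 FPKM. Between the diets, fewer cells of a type and less RNA per cell cannot be told apart in bulk tissue.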

How the data were processed

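RNA of light and heavy gradient fractions and total RNA of rat liver was sequenced after removal of ribosomal RNA. Per the labels, the authors used TopHat, Cufflinks and Cuffnorm on Rnor_6.0; the deposited values are FPKM per locus. For Ribo-Seq reads the methods also describe removal of reads that matched ribosomal RNA (Bowtie) and keeping of perfect matches only; whether the fraction libraries took that route is not clear. The annotation is not given in the sources used here. Each group was 1 library pooled from 3 rats, so values, counts and medians were given with no test. Ratios were log2 of FPKM plus 0.1.

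Whole fragments were inferred where FPKM values were multiples of 1 step per gene (tolerance 0.003 fragments) and the deposited bounds lay within 5% of the usual bound for that number; this held for 65.1% of loci compared. After 1% noise was added to the values, multiples were found in 0.858% of genes. Intervals are exact binomial (Clopper-Pearson, 95%) and cover counting error only, since each side was 1 pooled library. Reads had no molecular identifiers, so the intervals do not cover duplicate reads. The inference was tested on simulated data.

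Named genes were the study's PCR genes, the 12 coding genes at each end by counting interval, and in 37 lists the 4 highest in mean FPKM and both extremes. RefSeq biotypes replaced a protein table in choosing coding genes. Members and lists were chosen with earlier results of these data known. A few named genes are not reported here. Symbols of 9262 loci compared matched RefSeq. Start windows are from RefSeq on GRCr8, and no coordinates were moved between builds. Analyses used Python 3.11.15, pandas 2.3.3, numpy 2.4.6 and scipy 1.17.1.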

Additional observations from a re-analysis of the deposited data

Results flagged for a closer look

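For 8 named genes the heavy over light ratio pointed one way in WD and the other way in CD, either at least 2-fold in each or with counting intervals on opposite sides of 1. Among all loci, 7.09% of the 2144 at least 2-fold higher in WD heavy were at least 2-fold lower in CD heavy than in CD light. Of the 2679 at least 2-fold lower in WD heavy, 8.59% were at least 2-fold higher in CD heavy than in CD light. With 1 library a side these differences were not tested.

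In 2 of them the WD and CD ratios had counting intervals on opposite sides. Scd1 had a log2 ratio of 0.50 in WD and -0.24 in CD. Cyp3a2, a steroid hydroxylase, had -0.13 in WD and 0.51 in CD. Cyp3a2 also differed in level, at 1937 and 2126 FPKM in the WD heavy and light fractions and at 515 and 362 FPKM in the CD fractions.

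The others were each named as the gene with the lowest WD ratio of their list, a choice that favours a WD ratio below that of CD. Ndufs5, Egfl7, Rps19 and Sms rested on few fragments in at least 1 library, and Rpl17 and Acta2 had no inferred fragments. Ndufs5 had a WD log2 ratio of -3.92 and a CD ratio of 1.08, on 2 and 1 fragments in CD heavy and light. Egfl7, an endothelial factor, had -1.57 in WD and 1.03 in CD. Rpl17 (-10.16), Rps19 (-10.24), Sms (-5.67) and Acta2 (-3.44) were listed at 0 in the WD heavy fraction, so these WD log2 ratios depend on the 0.1 FPKM added and are no measure of size. Rpl17 and Rps19 stood at 114 and 121 FPKM in WD light and were listed at 0 in CD light, and Acta2 was at 0.986 FPKM in WD light.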

How the results depend on the processing

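With a mean of at least 10 FPKM, 1001 loci were at least 2-fold higher in the WD heavy fraction and 849 at least 2-fold lower, and CD had the same direction in 88.3% of them. With at least 20 fragments the values were 853, 1039 and 88.9%; fewer loci enter both. With a mean of at least 0.1 FPKM 4021 loci were at least 2-fold lower and 64.7% had the same direction in CD, and with no filter 4343 and 61.5%; both add loci with few fragments. The percent of the same direction was 78.8% with a pseudocount of 1 FPKM, 80.5% with ratios centred on their median, 75.6% for heavy over total RNA, and 78.1% without the 118 loci that stood apart in WD light, a setting chosen after the data were seen; the cause was not tested. The counts stayed within 1.5 times under the other alternatives. For heavy over total RNA, 138 list medians and named genes moved by 0.5 or more on the log2 scale with no called direction turned and 88 moved by less. The direction turned in red cell markers (median 0.28), Btf3 (-0.44), Hbb (5.89, listed at 0 in total RNA), Hist1h1c (0.038), Ndufa2 (2.59) and Ndufs5 (6.41, listed at 0 in total RNA). No other alternative turned the direction of a list median or named gene that was at least 2-fold apart. The planned rank correlation with protein length, and the naming of genes by it, were not run, since no protein table was at hand; transcript length was used in its place, also after the data were seen, and its rho ranged from -0.13 for heavy over total RNA to 0.08 with a mean of at least 10 FPKM. No paired analysis was possible because each group was 1 pooled library. A heavy library with a median of 10 fragments a locus limits the precision of single genes.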
